A study of Sus scrofa with 12 samples.

Results

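AMP-activated protein kinase (AMPK), the energy sensor of eukaryotic cells, is built from a catalytic alpha, a scaffold beta and a nucleotide-binding gamma subunit. Its subunits are encoded by PRKAA1 and PRKAA2 (alpha), PRKAB1 and PRKAB2 (beta), and PRKAG1, PRKAG2 and PRKAG3 (gamma). These 7 genes were chosen by name, with no use of their measured values, and all 7 were found among the 23271 genes of the deposited table. They were followed in longissimus dorsi, a mainly fast-twitch muscle that runs along the spine, in 6 libraries of Laiwu pigs and 6 libraries of Yorkshire pigs, 12 in all. Laiwu pigs are a Chinese breed noted for heavily marbled meat, and Yorkshire pigs a Western breed kept for lean growth. The study describes the pigs as equal in weight. Breed is the labelled difference between the groups, and no treatment or genetic change is named. Neither age nor sex is stated in the labels. The labels number the libraries within a breed and do not say that each comes from a separate animal, so every p-value speaks of the spread between these samples only, which may be technical.

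AMPK is switched on when AMP and ADP displace ATP on the gamma subunit and an upstream kinase, mainly LKB1, phosphorylates the alpha subunit. In muscle the active enzyme favours fatty acid oxidation and glucose uptake and holds back lipid and protein synthesis, and the beta subunit carries a glycogen-binding module. The gamma 3 subunit encoded by PRKAG3 is found mostly in fast glycolytic skeletal muscle, and PRKAG3 is known in pig breeding because a coding change in Hampshire pigs raises muscle glycogen and lowers the final pH of pork. The question put to these data is which isoforms make up AMPK transcripts in this muscle and whether their levels or shares differ between the breeds.

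Gene counts summed to between 54961358 and 67285809 per library. The lowest count of any AMPK gene in any library was 264, for PRKAB1 in Yorkshire 2, so no value rests on a handful of reads. The skeletal muscle transcripts ACTA1 and CKM, which encode skeletal actin and muscle creatine kinase, averaged 41624 and 9120 FPKM in the Laiwu libraries, against 43899 and 9506 FPKM in the Yorkshire libraries. They are the highest of 6 listed skeletal markers, of which TTN and MB were not found by symbol. Of the 4 tested, 3 were fitted lower in Laiwu and 1 higher, with 0 called by edgeR. The higher was NEB, at 585.3 FPKM in Laiwu against 491.3 FPKM in Yorkshire. FPKM is a count divided by the length of the gene model in kilobases and scaled to the depth of the library. Adipocyte markers, summed over the 10 listed genes, ranged from 124.8 to 328.7 FPKM in Laiwu and from 120.4 to 187.6 FPKM in Yorkshire. In bulk tissue, fewer cells of a type and less RNA per cell cannot be told apart. Yorkshire 5 stood apart, since its deviation from the mean of all libraries went down with the length of the gene. Spearman's rho, taken across 11205 genes, was -0.429 in it, against -0.115 to 0.179 in the other 11 libraries. Several results below are also given without it.

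The 7 genes lie on 7 different chromosomes of Sscrofa11.1, the pig reference genome, and no other gene of the table overlaps any of them. PRKAA1 (ENSSSCG00000024598) lies on chromosome 16 from 25745324 to 25783707 on the reverse strand, and PRKAA2 (ENSSSCG00000036145) on chromosome 6 from 155681784 to 155754278, also on the reverse strand. PRKAB1 (ENSSSCG00000009840) spans 33201669 to 33217539 of chromosome 14 on the reverse strand. PRKAB2 (ENSSSCG00000006703) spans 100378071 to 100394338 of chromosome 4 on the forward strand. PRKAG1 (ENSSSCG00000000185) occupies 15033058 to 15049735 of chromosome 5 on the reverse strand. PRKAG2 (ENSSSCG00000016432) occupies 5475077 to 5744657 of chromosome 18 on the forward strand, the widest of the 7 at 269581 bases. PRKAG3 (ENSSSCG00000016200) is the most compact, at 11116 bases from 120855201 to 120866316 of chromosome 15 on the reverse strand. The length by which the authors divided counts, recovered as count over FPKM, was 2.02 kb for PRKAG1, 2.63 kb for PRKAA2, 4.66 kb for PRKAA1, 5.67 kb for PRKAB2, 6.03 kb for PRKAG3, 6.38 kb for PRKAB1 and 10.03 kb for PRKAG2. The PRKAG3 model of the table reaches 4285 bases further at its downstream end than the RefSeq gene on the same assembly. The span of that RefSeq gene is 6823 bases. For the other 6 genes that end differs by at most 1608 bases. This largest value is that of PRKAA2, whose model also reaches further and whose length is only 2.63 kb. How many PRKAG3 or PRKAA2 counts fall in the added stretches cannot be read from counts per gene. The FPKM of both relative to other genes thus depends on the model used.

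Each subunit class was dominated by a single gene, namely PRKAA2, PRKAB2 and PRKAG3, and this held in all 12 libraries of both breeds. PRKAB2 was the most abundant AMPK transcript, with a mean of 73.7 ± 7.68 FPKM (SD, n = 12), and it exceeded PRKAA2, the next in order, in 12 of 12 libraries. PRKAA2 at 39.97 ± 7.11 FPKM and PRKAG3 at 34.8 ± 8.25 FPKM were neighbours whose order was not fixed, since PRKAA2 was higher in 9 libraries and PRKAG3 in 3. PRKAG1 followed at 11.1 ± 1.80 FPKM and was below PRKAG3 and above PRKAA1 in 12 of 12 libraries. The lowest 3 genes were PRKAA1 at 2.55 ± 0.508, PRKAG2 at 1.16 ± 0.879 and PRKAB1 at 1.10 ± 0.188 FPKM. PRKAG2 and PRKAB1 did not differ beyond their spread, and PRKAB1 was the higher of the pair in 9 libraries even though its mean was the lower.

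**Figure D1:**
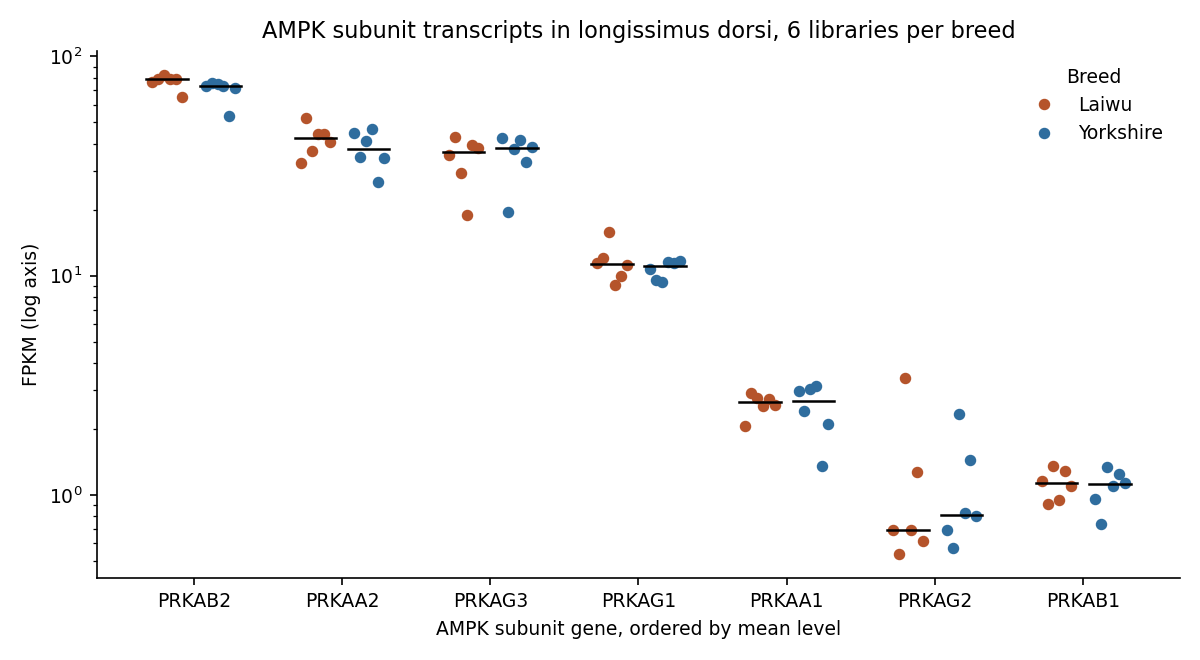
FPKM of the 7 AMPK subunit genes on a log axis, each point a library, with Laiwu left of Yorkshire within each gene and a black line at the median of 6 libraries. The breeds overlap for every gene, and PRKAG2 is spread over a 6.35-fold range while PRKAB2 spans 1.54-fold.

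The alpha subunit holds the kinase domain and the site that upstream kinases phosphorylate. PRKAA2 encodes alpha 2, the form that prevails in skeletal muscle. It ran from 32.6 to 52.4 FPKM with a median of 42.5 in Laiwu, and from 26.7 to 46.7 FPKM with a median of 37.9 in Yorkshire. The ranges overlapped over most of their width, with Laiwu 2 highest and Yorkshire 5 lowest. PRKAA1, which encodes the widely expressed alpha 1, ran from 2.07 to 2.90 FPKM with a median of 2.64 in Laiwu, and from 1.36 to 3.12 FPKM with a median of 2.69 in Yorkshire. The Laiwu range lay inside that of Yorkshire, whose lowest library was again Yorkshire 5. PRKAA2 exceeded PRKAA1 by 13.4-fold to 19.7-fold within libraries, a mean log2 ratio of 3.98 ± 0.166 (SD, n = 12).

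The beta subunit tethers alpha to gamma and binds glycogen. PRKAB2 encodes beta 2, the muscle form, and ran from 65.4 to 82.6 FPKM with a median of 78.8 in Laiwu, and from 53.7 to 75.9 FPKM with a median of 73.2 in Yorkshire. In each breed 5 of the 6 libraries lay close together and a single library lay well below them. These were Laiwu 6 at 65.4 FPKM, where the next Laiwu value was 76.8, and Yorkshire 5 at 53.7 FPKM, where the next Yorkshire value was 71.5. PRKAB1 encodes beta 1, which is widely expressed, and ran from 0.91 to 1.35 FPKM in Laiwu and from 0.735 to 1.34 FPKM in Yorkshire, with medians of 1.13 and 1.12. PRKAB2 exceeded PRKAB1 by 43.4-fold to 103.2-fold within libraries, the widest isoform gap of the 3 classes, with a mean log2 ratio of 6.07 ± 0.33 (SD, n = 12).

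The gamma subunit senses the nucleotide balance. PRKAG3 ran from 18.95 to 42.95 FPKM with a median of 36.8 in Laiwu, and from 19.5 to 42.5 FPKM with a median of 38.3 in Yorkshire. A single library per breed stood low, Laiwu 4 at 18.95 FPKM and Yorkshire 2 at 19.5 FPKM, while the others were between 29.3 and 42.95 FPKM. PRKAG1, which encodes the widely expressed gamma 1, ran from 9.06 to 15.9 FPKM with a median of 11.3 in Laiwu, and from 9.31 to 11.6 FPKM with a median of 11.1 in Yorkshire. Laiwu 3 was its highest library, and every Yorkshire value lay inside the Laiwu range. PRKAG2 encodes gamma 2, the form known from human heart disease with glycogen storage. It ran from 0.537 to 3.41 FPKM with a median of 0.69 in Laiwu, and from 0.572 to 2.35 FPKM with a median of 0.812 in Yorkshire. Its highest libraries were Laiwu 3 at 3.41 and Laiwu 5 at 1.27 FPKM in the first breed, and Yorkshire 3 at 2.35 and Yorkshire 5 at 1.43 FPKM in the second. The other 8 libraries were between 0.537 and 0.825 FPKM.

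Within a library, the dominant gene of each class exceeded its partners in 12 of 12 libraries, and so did PRKAG1 over PRKAG2. Exact sign-flip permutation tests of the 5 log2 FPKM ratios over the 12 libraries, two-sided, each gave p = 0.000488, the smallest that 4096 sign flips can give, and the same value after Benjamini-Hochberg adjustment over the 5 pairs. Any pair ordered alike in all 12 libraries gets this p, so it restates the 12 of 12. The order itself depends on the lengths of the gene models. PRKAG3 exceeded PRKAG1 by 1.84-fold to 4.05-fold, with a geometric mean of 3.05-fold, and exceeded PRKAG2 by 8.58-fold to 79.9-fold. Per count rather than per length, the geometric mean of PRKAG3 over PRKAG1 was 9.10-fold, because the PRKAG3 model is the longer. On counts PRKAG1 exceeded PRKAG2 in 10 of 12 libraries, and PRKAG2 was the higher in Laiwu 3, at 2206 against 2073 counts, and in Yorkshire 3, at 1290 against 1034 counts.

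Isoform shares, each gene's part of the summed FPKM of its class, were close to constant in percentage points for alpha and beta and moved for gamma. A share that is nearly the whole hardly moves when the ratio behind it does. The log2 ratio of PRKAB2 over PRKAB1 had an SD of 0.33, against 0.40 for PRKAG3 over PRKAG1, so these ratios varied to a similar degree. PRKAA2 made up 94.1 ± 0.598% of alpha FPKM in Laiwu and 93.9 ± 0.715% in Yorkshire (SD, n = 6 each), and it stayed between 93.05% and 95.2% in all libraries. PRKAB2 made up 98.6 ± 0.227% of beta FPKM in Laiwu and 98.5 ± 0.438% in Yorkshire. PRKAG3 made up 72.1 ± 7.23% of gamma FPKM in Laiwu and 74.3 ± 4.71% in Yorkshire, with a range over all libraries from 60.3% to 78.8%. PRKAG1 held 25.3 ± 5.45% in Laiwu and 23.3 ± 4.83% in Yorkshire, and PRKAG2 held 2.60 ± 2.26% and 2.36 ± 1.34%. The PRKAG3 share was lowest in Laiwu 3 at 60.3%, Yorkshire 2 at 65.9% and Laiwu 4 at 66.03%. In Yorkshire 2 and Laiwu 4 the PRKAG3 level was itself low, at 19.5 and 18.95 FPKM, whereas Laiwu 3 had 29.3 FPKM of PRKAG3 and the highest levels of both PRKAG1 and PRKAG2.

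**Figure D2:**
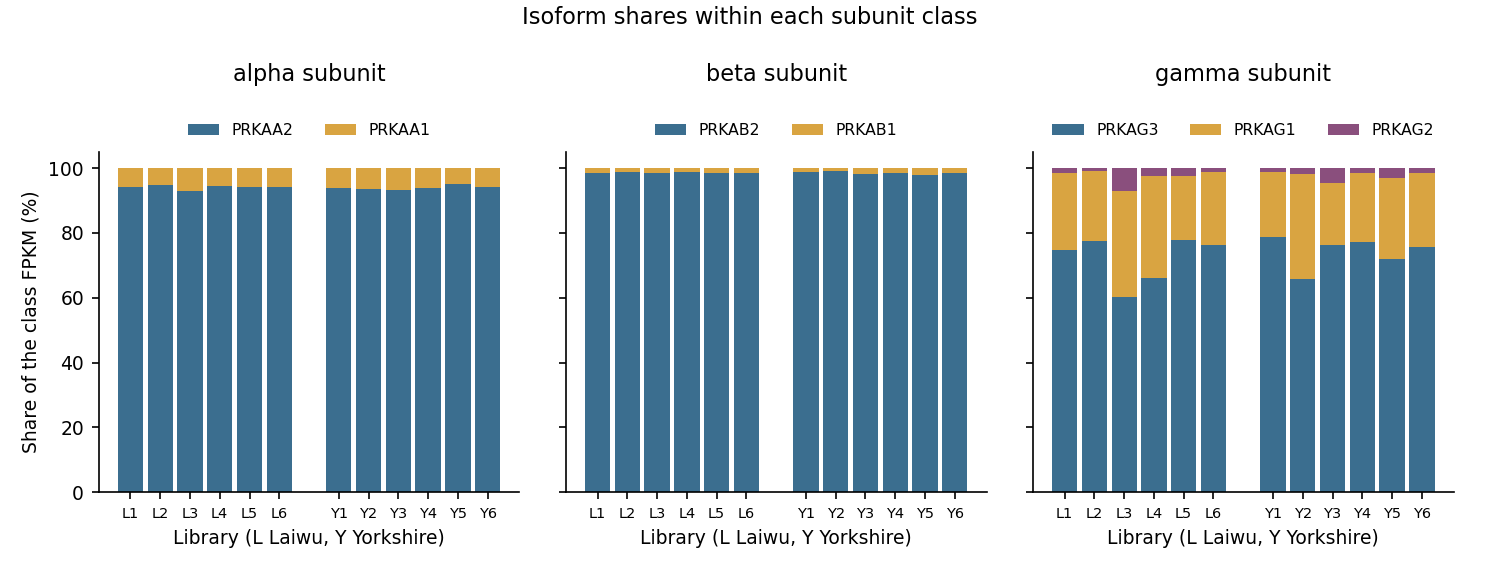
Share of the summed FPKM of each AMPK subunit class (%) held by each gene, a stacked bar per library, Laiwu left of Yorkshire, from 0 to 100%. PRKAA2 and PRKAB2 hold nearly all of their class in every library, while the PRKAG3 share runs from 60.3% in Laiwu 3 to 78.8% in Yorkshire 1.

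None of the 5 share differences between the breeds passed an exact permutation test over the 924 ways to divide 12 libraries evenly, two-sided, whose smallest possible p is 0.00216. The PRKAG3 share was 2.25 percentage points lower in Laiwu, with a 95% interval from -10 to 5.45 points, p = 0.55 by exact permutation and 0.793 after adjustment over the 5 shares. Without Laiwu 3 the difference was 0.109 points in the other direction. The PRKAG1 share was 2.02 points higher in Laiwu, with an interval from -4.80 to 8.40 points, and its difference ran from 0.541 points without Laiwu 3 to 3.78 without Yorkshire 2. On shares of counts it was 0.909 points. In Laiwu the PRKAG2 share was 0.236 points higher, with an interval from -1.90 to 2.60 points. The PRKAG2 difference was -0.65 points without Laiwu 3. For PRKAA2 the difference was 0.201 points with an interval from -0.60 to 1, and it was 0.449 points without Yorkshire 5 and 0.0325 without Yorkshire 3. For PRKAB2 it was 0.103 points with an interval from -0.30 to 0.55, and -0.0369 points without Yorkshire 5. The adjusted exact permutation p was 0.793 or 0.829 for each of the 5 shares.

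Summed over isoforms, the 3 classes were of the same order. Alpha came to 44.5 ± 7.03 FPKM in Laiwu and 40.5 ± 8.15 FPKM in Yorkshire, beta to 78.1 ± 5.96 and 71.5 ± 8.22 FPKM, and gamma to 46.8 ± 9.30 and 47.4 ± 9.20 FPKM (SD, n = 6 each). Gamma over alpha, the ratio of these sums, was 1.07 ± 0.258 in Laiwu and 1.196 ± 0.289 in Yorkshire. It was lowest in Laiwu 4 at 0.613 and Yorkshire 2 at 0.797, the libraries poor in PRKAG3, and highest in Yorkshire 5 at 1.63, the library lowest in both alpha genes. Without Yorkshire 5 the Yorkshire mean of gamma over alpha was 1.11 ± 0.216 (SD, n = 5), and the Yorkshire sums were 43.04 ± 6.04 FPKM for alpha, 74.8 ± 1.62 FPKM for beta and 47.6 ± 10.3 FPKM for gamma. These sums carry the gene lengths of the authors' models and describe transcripts, not protein.

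No AMPK subunit gene was called different between Laiwu and Yorkshire muscle. The quasi-likelihood test of edgeR, adjusted by Benjamini-Hochberg over all 11205 genes whose mean was 0.5 FPKM or more, called 0 of the 7 members at an adjusted p under 0.05, against a background of 0% of all genes tested. At an unadjusted p under 0.05 it had 0 of the 7 members, against 4.44% of all genes, and DESeq2 and limma called 0 of the 7 as well. The FPKM ranges of the breeds overlapped for 7 of 7 members, and over all tested genes they failed to overlap for 0.178%. Of the members, 6 had a fitted log2 fold change above 0 and 1 below, with a median of 0.086, where 49.7% of all tested genes were above 0 and their median was -0.0013.

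The largest fitted difference was that of PRKAA2, a log2 fold change of 0.13 ± 0.13 (SE) with a 95% interval from -0.16 to 0.41 and an edgeR adjusted p of 0.919. PRKAB2 followed at 0.11 ± 0.10, with an interval from -0.11 to 0.33. Without Yorkshire 5, these values were 0.0553 for PRKAA2 and 0.0548 for PRKAB2, and without Laiwu 2 that of PRKAA2 was 0.047. PRKAG3 was at -0.074 ± 0.20, with an interval from -0.50 to 0.35, and turned to 0.044 without Laiwu 4, its lowest Laiwu library. PRKAG1 was at 0.09 ± 0.13, with an interval from -0.20 to 0.37, and at -0.013 without Laiwu 3. PRKAA1 was at 0.043 ± 0.16 and at -0.074 without Yorkshire 5, and PRKAB1 was at 0.037 ± 0.15 and at -0.039 without Yorkshire 2. The intervals of these 6 genes lie within 0.50 of 0 on the log2 scale, so a difference larger than that in mean level lies outside them.

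PRKAG2 was measured far less precisely. Its log2 fold change was 0.10 ± 0.48 (SE), with an interval from -0.95 to 1.15 that leaves room for a 2-fold difference upward. It was -0.53 without Laiwu 3 and 0.39 without Yorkshire 3, so single libraries set its direction. The SE of the other 6 members was between 0.104 and 0.198, against a median of 0.163 over all tested genes.

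**Figure D3:**
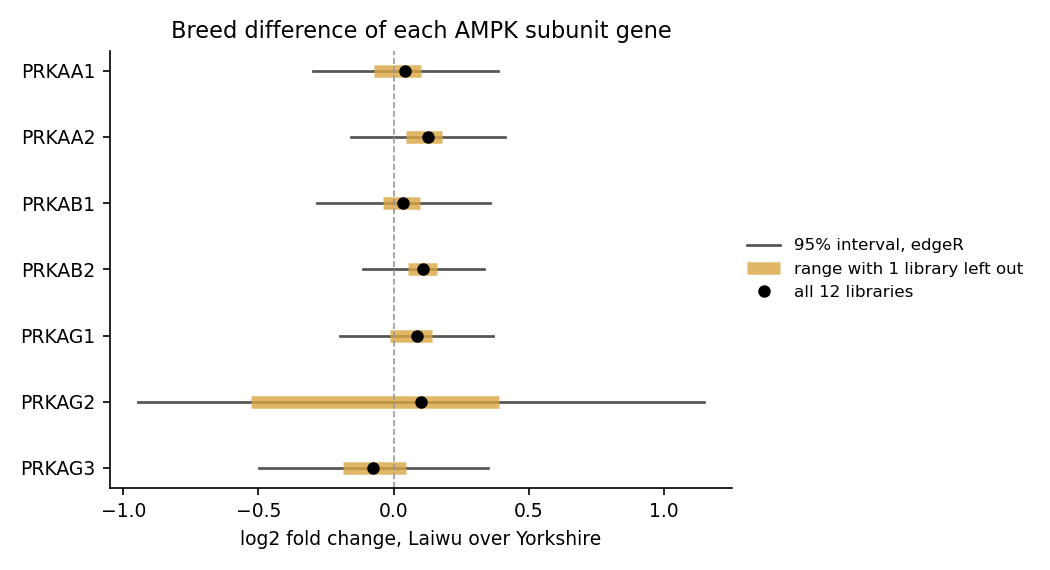
Fitted log2 fold change of each AMPK subunit gene, Laiwu over Yorkshire (points), with its 95% interval by edgeR (lines) and the range of values with 1 library left out (bands). Every interval crosses 0, and the interval of PRKAG2 is the widest, from -0.95 to 1.15.

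The members differed in how much they varied among libraries of the same breed. PRKAB2 was the steadiest, with a within-breed SD of 0.157 in log2 CPM (counts scaled to depth), and 9.996% of tested genes had a smaller one. PRKAG2 was the most variable, with an SD of 0.849, larger than that of 95.4% of tested genes, and PRKAG3 was next at 0.401, larger than that of 72.1%. The SD of the other 4 members lay between 0.229 and 0.299, around the median of 0.285 over all tested genes. PRKAG2 departed from its 12-library mean by 1.76 in Laiwu 3 and 1.13 in Yorkshire 3 on the log2 scale. PRKAG3 departed by -0.80 in Laiwu 4 and -0.68 in Yorkshire 2, and PRKAA1 by -0.78 in Yorkshire 5.

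**Figure D4:**
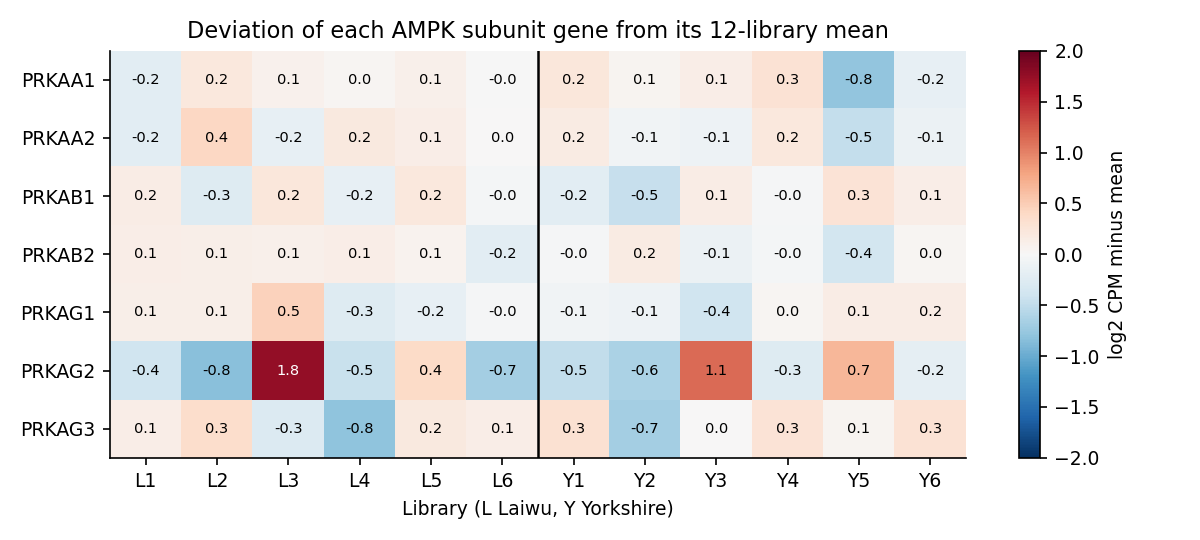
Deviation of each AMPK subunit gene from its mean over 12 libraries, in log2 CPM, with genes as rows and libraries as columns, Laiwu (L) left of Yorkshire (Y). The strongest colours are PRKAG2 in Laiwu 3 (1.76) and Yorkshire 3 (1.13), and the strongest negative values are PRKAG2 in Laiwu 2 (-0.84), PRKAG3 in Laiwu 4 (-0.80) and PRKAA1 in Yorkshire 5 (-0.78).

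Levels of the members were compared with each other across the 12 libraries, 21 pairs in all. The alpha genes PRKAA1 and PRKAA2 moved together, with a Pearson's r of 0.819 (permutation p = 0.00061, adjusted 0.0128 over 21 pairs) and a Spearman's rho of 0.734 (permutation p = 0.00865, adjusted 0.0908). Within breeds r was 0.777 in Laiwu (exact permutation p = 0.0694, n = 6) and 0.941 in Yorkshire (exact permutation p = 0.00278, n = 6). Without Laiwu 1 and Yorkshire 5, the libraries farthest from the median of PRKAA1, r was 0.61 with a permutation p of 0.0612, so the relation rests in part on them. Without Yorkshire 5 alone r was 0.699, and its adjusted permutation p was 0.182. Yorkshire 5 is also the library whose counts deviate with gene length, and the part of this in the relation was not tested. The low-level genes PRKAB1 and PRKAG2 had a Spearman's rho of 0.853 (permutation p = 0.00087, adjusted 0.0183) and a Pearson's r of 0.712 (permutation p = 0.00884, adjusted 0.0928). Their r was 0.741 in Laiwu and 0.764 in Yorkshire, and 0.689 without the 2 libraries farthest from the median of PRKAB1, Laiwu 2 and Yorkshire 2.

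AMPK isoforms are known to differ between muscle fibre types, and slow fibre genes vary among these libraries. A slow fibre score, the mean of log2(FPKM + 1) of 9 slow fibre genes after centring each gene, was lowest in Laiwu 1 at -1.48 and highest in Laiwu 5 at 0.474 among the Laiwu libraries. Among the Yorkshire libraries Yorkshire 2 was lowest at -0.447 and Yorkshire 5 highest at 0.814. Between the breeds 8 of the 9 genes were fitted lower in Laiwu, with a median log2 fold change of -0.53 and 0 called by edgeR. Of 11 fast fibre genes 8 were fitted lower in Laiwu as well, with a median of -0.11 and 0 called. None of the 7 members was related to the slow fibre score past an adjusted permutation p of 0.05 by either coefficient. PRKAB2 came nearest, lower at higher scores, with a Pearson's r of -0.621 (permutation p = 0.0327, adjusted 0.229 over 7 relations) and a Spearman's rho of -0.685 (permutation p = 0.0176, adjusted 0.123). Its r was -0.352 in Laiwu (exact permutation p = 0.526, n = 6) and -0.95 in Yorkshire (exact permutation p = 0.0111, n = 6), and -0.654 without Laiwu 1 and Laiwu 4, the libraries farthest from the median score. Yorkshire 5 had both the lowest PRKAB2 level and the highest score, and without it the pooled r was -0.52, with an adjusted permutation p of 0.243. In that library TNNC1, MYL2, TNNT1, TNNI1, MYL3 and TPM3 were at their highest, but MYH7 and CASQ2 were not. ATP2A2 was at its Yorkshire lowest there, 88.6 FPKM. Yorkshire 5 is also the library whose deviations went down with gene length, and the part of this in its score was not tested. PRKAG3 had an r of 0.463 (permutation p = 0.116, adjusted 0.406) and a rho of 0.357 (permutation p = 0.253, adjusted 0.478), with 0.399 in Laiwu and 0.613 in Yorkshire. Its r depended on Laiwu 1, the library of lowest score, where PRKAG3 stood at 35.5 FPKM. Without that library r was 0.804 with an adjusted permutation p of 0.0386, without Laiwu 4 it was 0.279, and without both it was 0.639 with a permutation p of 0.0554. For the other 5 members the pooled r lay between -0.0459 and 0.32, but some differed in sign within the breeds. PRKAA1 had an r of 0.813 in Laiwu (unadjusted exact permutation p = 0.0417, n = 6) and -0.491 in Yorkshire (exact permutation p = 0.322, n = 6), and its pooled r was 0.635 without Yorkshire 5. PRKAA2 had 0.514 in Laiwu and -0.412 in Yorkshire. PRKAB1 had -0.0626 in Laiwu (exact permutation p = 0.893, n = 6) and 0.852 in Yorkshire (unadjusted exact permutation p = 0.0292, n = 6), and its pooled r ran from 0.0892 without Yorkshire 5 to 0.559 without Laiwu 1. PRKAG1 had 0.0364 in Laiwu and 0.0939 in Yorkshire, and PRKAG2 had 0.17 and 0.734. The differences between the breeds in these relations were not tested.

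**Figure D5:**
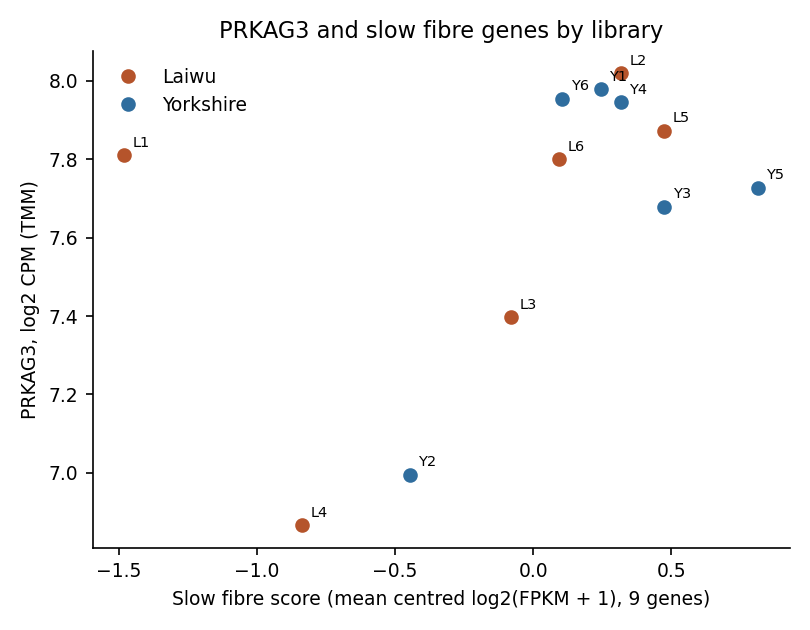
PRKAG3 level in log2 CPM (vertical) against the slow fibre score, the mean centred log2(FPKM + 1) of 9 slow fibre genes (horizontal), a point per library coloured by breed. Laiwu 4 and Yorkshire 2 lie low on both axes, and Laiwu 1 has the lowest score (-1.48) with a PRKAG3 level among the others.

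The genes whose pattern was most like that of PRKAG3 were picked by Pearson's r of log2 CPM over the 12 libraries among 4248 genes with a symbol and a mean of at least 5 FPKM, as a description. They were MCAM (r = 0.869), DDIT4 (0.833), STRADB (0.831), USP22 (0.831) and ZNF503 (0.829). STRADB, a pseudokinase related to the partner of LKB1, was also lowest in the libraries lowest in PRKAG3, at 59.7 FPKM for Laiwu 4 and 53.4 FPKM for Yorkshire 2. DDIT4, an inhibitor of mTORC1 that rises under energy stress and hypoxia, had 21.03 FPKM in Laiwu 4 and 23.7 FPKM in Yorkshire 2, within a range over all libraries from 21.03 to 90.7 FPKM. Most like PRKAA2 were ERBIN (0.932), HIPK3 (0.924), SOS2 (0.906), INTS6 (0.904) and LATS1 (0.901), and without Yorkshire 5 these ran from 0.833 to 0.886. The same rule was applied to PRKAG2 after its values were seen. It gave GABARAPL1 (0.936), SQSTM1 (0.911), BNIP3L (0.907), HMOX2 (0.90) and ARFIP1 (0.898), of which the first 3 encode proteins of autophagy. SQSTM1, the autophagy receptor p62, reached 306.3 FPKM in Laiwu 3 and 271.2 FPKM in Yorkshire 3, the libraries highest in PRKAG2, and between 129.1 and 243.6 FPKM elsewhere. Without Laiwu 3 the 5 values of r ran from 0.857 to 0.909. All libraries share their depth and composition across genes, which any such likeness carries. The genes were picked over these same libraries, so their high or low values in the extreme libraries follow largely from that choice. How many of the compared genes encode proteins of autophagy was not counted.

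Genes upstream and downstream of AMPK were counted in 8 lists, with 75 of 83 distinct genes tested. Of the others, MARK3 and STBD1 were not found by symbol, and the rest were under the level required. By edgeR 0 of the 75 were called, 51 were fitted above 0 and 24 below, with a median log2 fold change of 0.087. An unadjusted p under 0.05 was reached by 2 of them, or 2.67%, against 4.44% of all tested genes, and DESeq2 and limma called 0. Those 2, named after their values were seen, were SIRT1, the NAD-dependent deacetylase, at 3.15 ± 0.232 FPKM in Laiwu, against 2.58 ± 0.217 FPKM in Yorkshire, and LIPE, the hormone-sensitive lipase, at 5.98 ± 3.55 and 2.96 ± 1.26 FPKM (SD, n = 6 each). Their edgeR adjusted p was 0.912. LIPE is also made by adipocytes, and of the 9 tested adipocyte markers 8 had a log2 fold change above 0, with a median of 0.86 and 0 called. The part of fat cells in the LIPE values was not tested. The medians of the lists were small and moved with single libraries, so each is given with its range over fits that leave out 1 library.

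Among the 8 upstream kinases and partners, 4 were above 0 and 4 below, with a median log2 fold change of -0.0046, which ran from -0.035 without Laiwu 2 to 0.027 without Yorkshire 1. The highest of them were STRADB at 69.4 ± 7.26 FPKM in Laiwu, against 68.1 ± 7.80 FPKM in Yorkshire, and CAB39, the scaffold MO25 of the LKB1 complex, at 50.6 ± 3.43 and 45.7 ± 3.95 FPKM. Kinases related to alpha had 6 of 8 tested members above 0, with a median of 0.10, from 0.061 without Yorkshire 5 to 0.16 without Yorkshire 6. Their highest, SIK1, varied among libraries of the same breed, from 0.561 to 15.5 FPKM in Laiwu and from 0.682 to 16.8 FPKM in Yorkshire. SIK3 was at 7.59 ± 2.63 FPKM in Laiwu, against 7.17 ± 1.84 FPKM in Yorkshire. Phosphatases and negative regulators had 7 of 9 above 0, with a median of 0.096, from 0.062 without Yorkshire 5 to 0.20 without Yorkshire 2. Their highest were the phosphatase subunits PPP2CB, at 33.5 ± 4.68 and 37.2 ± 6.84 FPKM, and PPM1B, at 25.8 ± 4.87 and 21.3 ± 4.48 FPKM.

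Of the lipid metabolism substrates, 6 of 9 were above 0, with a median of 0.15, from 0.068 without Laiwu 3 to 0.25 without Yorkshire 1. With a minimum of 5 FPKM it was -0.021. PNPLA2, the adipose triglyceride lipase, was at 34.5 ± 10.6 FPKM in Laiwu, against 33.8 ± 10.1 FPKM in Yorkshire, and SREBF1, a driver of lipid synthesis, at 11.5 ± 4.44 and 12.1 ± 5.13 FPKM. Glucose and glycogen substrates divided evenly, 4 above 0 and 4 below, with a median of 0.0027, from -0.050 without Yorkshire 2 to 0.13 without Laiwu 3. TXNIP, which restrains glucose uptake, was at 265.2 ± 77.7 FPKM in Laiwu, against 213.01 ± 80.3 FPKM in Yorkshire, and GYS1, the muscle glycogen synthase, at 77.4 ± 13.7 and 77.5 ± 11.7 FPKM. Growth, autophagy and mitochondrial substrates had 8 of 10 above 0, with a median of 0.12, from 0.067 without Yorkshire 3 to 0.15 without Laiwu 4. RB1CC1, the autophagy protein FIP200, was at 30.4 ± 3.09 FPKM in Laiwu, against 27.5 ± 4.38 FPKM in Yorkshire, and MFF, a mitochondrial fission factor, at 21.3 ± 1.33 and 22.4 ± 1.83 FPKM. Transcriptional partners had 8 of 12 above 0, with a median of 0.055, from 0.012 without Laiwu 3 to 0.11 without Yorkshire 6. The highest were NAMPT, an enzyme of NAD synthesis, at 23.2 ± 7.01 and 20.3 ± 4.12 FPKM, and ESRRA, a nuclear receptor of mitochondrial genes, at 20.1 ± 3.05 and 21.8 ± 1.71 FPKM. Glycogen enzymes, whose product the beta subunit binds, had 8 of 12 above 0, with a median of 0.12, from 0.072 without Yorkshire 5 to 0.14 without Yorkshire 3. PYGM, the muscle glycogen phosphorylase, was at 4699 ± 404.4 FPKM in Laiwu, against 4688 ± 892.4 FPKM in Yorkshire.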

How the data were processed

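Poly(A) RNA was made into dUTP-marked libraries, per the labels' protocols. The authors aligned reads with HISAT2 2.2.1 to Sscrofa11.1, per the design text, while StringTie 1.3.4d, cutadapt 1.9, edgeR and DESeq2 stand in the submitters' processing notes with no role. The annotation release and the strand setting are not given here. The deposited table holds a raw count and an FPKM value per gene and library, per the file headers.

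A mean of 0.5 FPKM or more was required, which left 11205 genes to test and 12066 out. Counts went to edgeR 4.0.16 (quasi-likelihood, TMM, robust, R 4.3.3), Laiwu over Yorkshire, with SE as |log2 fold change| over the root of F, and the fit was tested on simulated data. limma 3.58.1 and DESeq2 1.42.0 were alternatives. Shares and ratios were computed from FPKM, and intervals of share differences by inverting the exact permutation test. Pooled correlations used 100000 permutations and Python 3.11.15. Members, lists and tests were chosen with earlier results of these data known. Named pathway genes are the 2 of highest mean FPKM per list, as none was called. One gene that the rule names is not reported here.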

Additional observations from a re-analysis of the deposited data

Results flagged for a closer look

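Across 24 groups of 6 libraries, 4 held a value far from the others by Dixon's criterion, where chance flags about 1 group in 20. PRKAG2 in Laiwu 3 stood at 3.41 FPKM, where the next Laiwu library was at 1.27 FPKM. The PRKAG2 share of gamma FPKM in the same library was 7.02%, where the next was 2.50%. This share is computed from the same FPKM, so the groups are not independent and the rate of chance flags is only a guide. PRKAB2 was low in Laiwu 6, at 65.4 FPKM, where the nearest Laiwu library was at 76.8 FPKM. PRKAB2 was also low in Yorkshire 5, at 53.7 FPKM, where the nearest Yorkshire library was at 71.5 FPKM.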

How the results depend on the processing

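No member fold change and no share difference passed the threshold under any alternative run, and the 5 isoform ratios passed under every alternative, with a largest adjusted p of 0.0312 by exact permutation within a single breed. That is the smallest p the test can give with 6 libraries, so it restates that the order was alike in all of them. Replicate numbers are shared by the breeds, and the deviations of same-numbered libraries had correlations from -0.279 to 0.317. What an equal number marks is not stated in the labels and was not tested. With the replicate block 0 genes were called and the PRKAG2 log2 fold change was -0.078, with no other member changing sign. DESeq2 called 1 gene, CILP. The PRKAA1 fold change was -0.069 by limma-voom with quality weights, and that of PRKAG2 was -0.045 by limma on log2(FPKM + 0.1). The PRKAB2 share difference was -0.0241 points by medians. With 1 library left out, log2 fold changes ran from -0.074 to 0.10 for PRKAA1, -0.039 to 0.10 for PRKAB1, -0.013 to 0.14 for PRKAG1, -0.53 to 0.39 for PRKAG2 and -0.19 to 0.044 for PRKAG3. Share differences ran from 0.0325 to 0.449 points for PRKAA2, 0.541 to 3.78 for PRKAG1, -0.0369 to 0.222 points for PRKAB2, -0.65 to 0.713 for PRKAG2 and -3.93 to 0.109 for PRKAG3. Correlations with the slow fibre score ran from -0.314 to 0.635 for PRKAA1, -0.263 to 0.396 for PRKAA2, 0.0892 to 0.559 for PRKAB1, -0.683 to -0.52 for PRKAB2, -0.21 to 0.129 for PRKAG1 and 0.279 to 0.804 for PRKAG3. That of PRKAA1 was 0.0711 on log2(FPKM + 1), 0.128 with MYH7 alone and 0.014 on deviations from breed means, and that of PRKAG1 was 0.0933 and 0.0534 on the first and last of these. The cause of these changes was not tested. A minimum of 5 FPKM leaves only 4 members in the test. Over all tested genes, counts differed between libraries of a breed beyond read sampling. The chi-square per degree of freedom ran from 32.4 for Yorkshire 1 and Yorkshire 4 to 495.1 for Laiwu 1 and Laiwu 5. Counts of the members start at 264, and what limits their own tests was not tested.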

Other observations

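PRKAG2 ran in parallel across the numbers that the breeds share, a pattern noticed after its values were seen. It was at 0.691, 0.537, 3.41, 0.688, 1.27 and 0.618 FPKM in Laiwu 1 to 6 and at 0.688, 0.572, 2.35, 0.825, 1.43 and 0.799 FPKM in Yorkshire 1 to 6, so libraries 3 and 5 were the highest of both breeds. Pearson's r of log2 CPM between same-numbered libraries was 0.942 (exact permutation p = 0.0111 over 720 pairings, n = 6, adjusted 0.0778 over the 7 members), and Spearman's rho was 0.771 (exact permutation p = 0.103, adjusted 0.24). Pearson's r was 0.309 without numbers 3 and 5, the 2 farthest from the median, each left out in both breeds. The relation thus rests on these numbers and fails the adjustment. An r at least as high was found for 45 of the tested genes, or 0.402%. PRKAG1 went the other way, at an r of -0.884 (exact permutation p = 0.0264, n = 6, adjusted 0.0924), with a Spearman's rho of -0.771 (exact permutation p = 0.103, adjusted 0.24). Its r was -0.898 without the 2 numbers farthest from the median, again left out in both breeds.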
